A study of Mus musculus with 11 samples.

Results

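The comparison set 2153 cells of mouse embryonic stem (ES) cells labelled JupHigh, grown in serum/LIF, against 2889 wild type ES cells grown in 2i/LIF. These 5042 cells are part of 7079 cells in 5 single-cell libraries, and the whole series holds 11 samples. A barcode counted as a cell when it held 1000 or more UMIs (unique molecular identifiers, each standing for 1 captured transcript) and at most 0.9 detected genes per UMI. The question is which programmes still differ between 2 libraries that both express genes of the naive pluripotent state at high levels. Each condition is 1 library, so no comparison has a replicate check, and every interval below covers counting error only.

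The library labelled JupHigh came from ES cells that express plakoglobin, the product of Jup, constitutively from the CAG promoter, at a level the labels call high. Its parent line is not named in the labels, nor is it said whether it is 1 clone. The other library came from wild type E14, a widely used male mouse ES cell line. Both were grown on tissue-culture plastic, rinsed with PBS and profiled with inDrop, a droplet method that tags each polyadenylated transcript with a cell barcode and a UMI. Both media hold LIF, a cytokine that sustains self-renewal through STAT3. The transgene, the medium and possibly the cell line differ together between the libraries and cannot be told apart here. The wild type E14 library in serum/LIF on plastic (725 cells) and the library labelled JupLow in serum/LIF on plastic (1200 cells) are given side by side where they place a level. They are called here wild type serum and labelled JupLow.

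Naive pluripotency is the state of the preimplantation epiblast, held by a network of factors that includes Nanog, Esrrb, Klf4, Tfcp2l1 and Zfp42. The 2i medium holds it by inhibiting MEK, the kinase that activates ERK, and GSK3, the kinase that marks beta-catenin for destruction. ES cells in serum keep ERK signalling and drift between naive and formative states, and in 2i their genome loses DNA methylation, with low levels of the de novo methylation genes. Plakoglobin is a close relative of beta-catenin that links cadherins to the cytoskeleton at adherens junctions and desmosomes.

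The promoters of 3 genes whose levels differed are shown first, since these genes are described below among metal and amino acid response genes. They are the 250 bases before the RefSeq start site in GRCm38.p6, read 5′ to 3′ on the strand of the gene. Capitals mark matches, on either strand, of a searched motif. For Mt1 (chr8:94178839-94179088, plus strand) and Mt2 (chr8:94172368-94172617, plus strand), which encode metallothioneins, the motif was the core of the metal response element bound by MTF1, TGCACNC or TGCGCNC. For Asns (chr6:7693210-7693459, minus strand), which encodes asparagine synthetase, it was the element bound by ATF4 and its partners, TGATGNAA.
Mt1: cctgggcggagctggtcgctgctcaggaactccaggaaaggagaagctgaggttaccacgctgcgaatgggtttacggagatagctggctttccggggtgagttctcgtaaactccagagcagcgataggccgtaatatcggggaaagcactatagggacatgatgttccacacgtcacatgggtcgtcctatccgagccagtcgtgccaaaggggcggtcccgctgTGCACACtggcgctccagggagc
Mt2: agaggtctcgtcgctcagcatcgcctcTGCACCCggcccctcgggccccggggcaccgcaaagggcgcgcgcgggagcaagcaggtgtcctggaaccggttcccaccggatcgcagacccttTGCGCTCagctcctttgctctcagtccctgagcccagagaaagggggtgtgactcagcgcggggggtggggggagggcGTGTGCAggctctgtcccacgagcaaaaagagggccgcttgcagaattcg
Asns: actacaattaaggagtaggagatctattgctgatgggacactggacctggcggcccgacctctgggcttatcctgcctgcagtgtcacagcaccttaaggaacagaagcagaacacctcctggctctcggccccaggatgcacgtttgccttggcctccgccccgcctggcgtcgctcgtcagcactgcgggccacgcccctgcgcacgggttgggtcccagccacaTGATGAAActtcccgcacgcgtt
The Mt1 window held 1 match and the Mt2 window 3 matches. Bases after the RefSeq start were not searched, so these counts do not rank the promoters of the 2 genes. At least 1 match was found in 21.4% of 32851 promoters of this length, and 3 or more in 1.26%. The Asns window held 1 match of TGATGNAA, which occurs in 3.45% of promoters. A match is a description of the letters and not a measured binding site.

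Depth and cell quality differed between the libraries. The cells labelled JupHigh held 4310792 UMIs, with a median of 1902 UMIs and 1011 genes per cell. The 2i cells held 8284254 UMIs, with a median of 2465 UMIs and 1240 genes. Mitochondrially encoded transcripts took 14.8% of UMIs in the library labelled JupHigh and 9.82% in 2i, and 3 nuclear copies of mitochondrial genes (Gm28661, Gm10925 and Gm29216) took a further 14.3% and 8.39%. Cells with 30% or more of their UMIs on these genes made up 38.1% of the cells labelled JupHigh (821 cells; exact binomial 95% interval 36.1 to 40.2%) and 13.6% in 2i (394 cells; 12.4 to 14.9%). The share was 27.7% in wild type serum and 36.6% in the library labelled JupLow. Results are therefore given over all cells and, where they moved, over the 1332 and 2495 cells under this limit. The limit was chosen after the data were seen, and 8.64% and 3.6% of cells lie within 10 points of it. Barcodes just outside the limit of 1000 UMIs (900 to 999 UMIs) carried the naive genes at 5846 CPM in the library labelled JupHigh (129 barcodes) and 5551 CPM in 2i (420 barcodes). Those just inside (1000 to 1099 UMIs) carried them at 5344 CPM (101 cells) and 5842 CPM (311 cells).

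The cell type labels were checked against marker genes. All 8 ES cell markers were detected in both libraries, at a summed 3921 CPM in the library labelled JupHigh and 3271 CPM in 2i. Fibroblast markers summed to 21 UMIs and 24 UMIs, with 4 of 8 at 0 in both, including Col3a1, Lum and Postn. Mesendoderm markers summed to 39 UMIs and 88 UMIs. Neural markers summed to 301 UMIs (69.8 CPM) and 677 UMIs (81.7 CPM), mostly Tubb3 at 45.0 CPM and 76.9 CPM, with Neurog2 at 0 in both. Single neural markers went both ways. Map2 was at 17.6 CPM and 3.62 CPM, and Pax6 had 29 UMIs and 4 UMIs, while Sox1 had 2 UMIs and 6 UMIs. Trophoblast markers summed to 24 UMIs and 27 UMIs, with Elf5, Prl3d1 and Tpbpa at 0 in both. No barcode was shared between the libraries. Few genes were counted in only 1 of the pair: 6 genes at 50 CPM or more in 1 library were 100-fold lower in the other. Between the library labelled JupHigh and wild type serum there were 180 such genes, 86 of them with exons overlapping another gene, and Sox2 was among the 180 with 0 UMIs in wild type serum. Levels in wild type serum of genes called overlapped below are therefore given as listed and not compared. The rest of the 180 had no recorded exon overlap, so other genes can be miscounted in that library too. Cox4i1 had 0 UMIs there, and Ctnnb1 was at 9.42 CPM beside 395 CPM in 2i and 574 CPM in the library labelled JupLow. Every level given for wild type serum below carries this limit.

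Levels are in CPM, the UMIs of a gene as a part of all UMIs in the cells of a library, times 1000000. A ratio is log2 of the CPM in the library labelled JupHigh over that in 2i, so a positive value means higher in the library labelled JupHigh. Its exact 95% interval is conditional on the summed UMIs. Of 25346 genes listed in either library, 8517 had a mean of 10 CPM or more over both and are called tested. A gene is called higher or lower when the ratio reached 2-fold, which is a size and not a statistical test. By this rule 310 tested genes (3.64%) were higher in the library labelled JupHigh and 537 (6.31%) were lower, 847 in all (9.94%). These shares are the background for every count of list members over all cells below. A gene can pass the filter through 1 library alone, as Gbx2, Bnip3, Scd1, Trib3 and Crabp1 did, and then had to differ. Only 135 genes reached 4-fold and 45 reached 8-fold. The median ratio of all tested genes was -0.13, with the 5th and 95th percentiles at -1.07 and 0.81.

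Scaling by TMM or by the median of ratios moved all ratios up by 0.12 to 0.13, and higher genes then made up 52.8% and 53.4% of the called genes in place of 36.6%. In the cells with few mitochondrial UMIs the median was 0.03, a shift of 0.15. Of 8867 genes tested in those cells, 426 (4.80%) were higher and 316 (3.56%) lower, which is the background for list counts in those cells. Of the 426 and 316 genes, 286 and 296 were also called over all cells. Small differences between lists are therefore read against this shift.

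**Figure D1:**
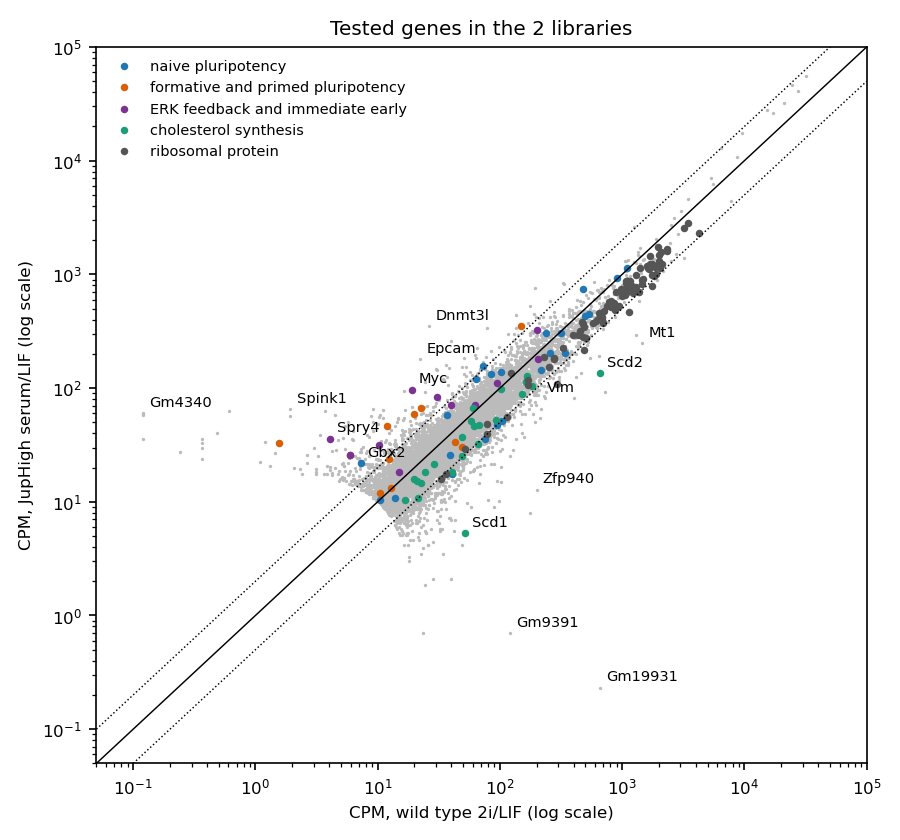
CPM of each of the 8517 tested genes in 2i (horizontal axis, log scale) and in the library labelled JupHigh (vertical axis, log scale), 1 point a gene, with 5 gene lists in colour. The solid line marks equal CPM and the dotted lines mark 2-fold. Naive genes lie along the line, most formative and ERK genes lie above it and most cholesterol and ribosomal protein genes lie below it.

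Jup itself (chr11:100368958-100397763, minus strand) did not separate the libraries. The library labelled JupHigh held 206 Jup UMIs, 47.8 CPM (exact Poisson 95% interval 41.5 to 54.8), and 2i held 387 UMIs, 46.7 CPM (42.2 to 51.6). The ratio was 0.03 (-0.22 to 0.28), and 0.23 in cells with few mitochondrial UMIs. After each cell was thinned to 1000 UMIs, 4.60% and 4.57% of cells held a Jup UMI (8.55% and 12.1% before thinning). It is not given whether a transcript of the transgene would be counted under Jup, so these counts do not check the label.

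Over all cells, naive genes as a group were at the same summed level. The 25 genes of the naive list summed to 5794 CPM in the library labelled JupHigh and 5804 CPM in 2i. Of 24 tested members, 2 were higher and 3 lower, against a background of 3.64% and 6.31% of all tested genes. The median ratio was -0.14, with medians of the members' counting limits of -0.32 and 0.06, beside -0.13 for all tested genes. In cells with few mitochondrial UMIs the median was 0.02, with 3 higher and 1 lower. The naive list was not level in those cells, with a mean of 7.35 UMIs per 1000 in the library labelled JupHigh and 6.34 in 2i.

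Single naive genes spread to both sides of this median. Nanog, a homeodomain factor of the naive network, was at 450 CPM and 539 CPM (ratio -0.26, -0.34 to -0.18). Esrrb, an orphan nuclear receptor that GSK3 inhibition raises, was at 308 CPM and 318 CPM (-0.05, -0.15 to 0.05). Klf4, a zinc finger factor downstream of LIF, was at 303 CPM and 238 CPM (0.35, 0.24 to 0.45). These core factors stayed well under 2-fold, and in wild type serum they were at 82.8, 66.4 and 66.9 CPM.

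The higher and lower members lay elsewhere in the list. Gbx2, a homeobox gene induced by LIF, was at 21.8 CPM (94 UMIs) in the library labelled JupHigh and 7.24 CPM (60 UMIs) in 2i, a ratio of 1.59 (1.11 to 2.08). Nr0b1, which encodes the nuclear receptor Dax1, was at 158 CPM and 72.1 CPM (1.13, 0.97 to 1.29). Zfp42, which encodes Rex1, a common reporter of the naive state, was at 739 CPM and 475 CPM (0.64, 0.57 to 0.71), under 2-fold. In the other direction Pecam1, a surface adhesion protein, was at 17.4 CPM and 40.6 CPM (-1.22, -1.60 to -0.86). Tcl1, a coactivator of AKT, was at 36.0 CPM and 75.8 CPM (-1.08), and -0.72 in cells with few mitochondrial UMIs, which ends the call. Tbx3, a T-box factor of the naive network, was at 51.5 CPM and 105 CPM (-1.03, -1.25 to -0.81). Prdm14, which keeps the de novo methylation genes low in 2i, did not pass the filter, at 17 UMIs (3.94 CPM) and 92 UMIs (11.1 CPM).

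Per cell, nearly all cells of both libraries carried naive transcripts. After thinning, 96.9% of cells labelled JupHigh (96.1 to 97.6%; 99.2% before thinning) and 98.2% of 2i cells (97.6 to 98.6%; 99.9%) held at least 1 UMI of the 25 genes, beside 73.1% in wild type serum. The mean was 5.73 and 5.83 naive UMIs per 1000, and 1.86 in wild type serum. The spread was wider in the library labelled JupHigh, with a Fano factor (variance over mean) of 2.10 against 1.42 in 2i. Cells with 0 or 1 naive UMI made up 10.7% (230 cells) and 6.16% (178 cells). In those cells mitochondrial genes and their 3 copies took 585 and 465 of 1000 UMIs, beside 178 and 109 in cells with 5 or more naive UMIs. Over the cells with few mitochondrial UMIs, the Fano factor was 1.29 and 1.13, the share with 0 or 1 naive UMI was 1.43% and 2.12%, and the mean was 7.35 and 6.34. The Fano factors were thus nearer to each other without the cells rich in mitochondrial UMIs.

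**Figure D2:**
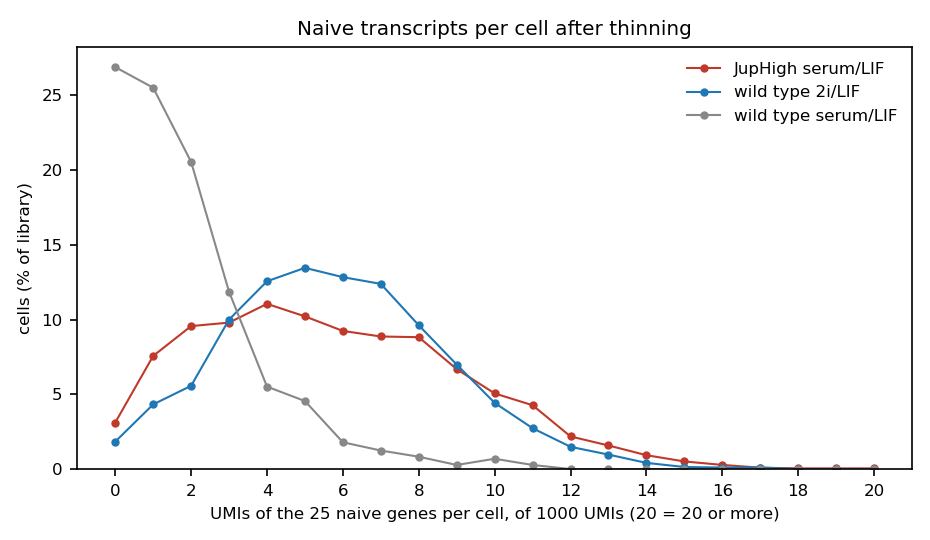
Share of cells (vertical axis, % of each library) by the number of UMIs of the 25 naive genes per cell after thinning to 1000 UMIs (horizontal axis). The curves of the library labelled JupHigh (red) and of 2i (blue) cover the same range with means of 5.73 and 5.83, the red one flatter and with more cells at 0 to 2, while wild type serum (grey) is highest at 0.

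Barcodes below the cell limit also carried these transcripts. In the library labelled JupHigh, the 1344 barcodes under 500 UMIs held the naive genes at 7495 CPM and Dnmt3l at 454 CPM. Only 2 barcodes of the 2i table were that small, so no such level was measured for 2i. No cell type that lacks these genes was at hand to give a background for the shares of cells.

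Of the 12 genes of general pluripotency, 11 had ratios above 0 and 5 passed 2-fold. The 12 genes of the core list summed to 4383 CPM and 3116 CPM, with a median ratio of 0.71 (medians of the limits 0.60 and 0.83), and 0 were lower. Pou5f1, which encodes Oct4, was the 1 member below 0, at 475 CPM and 585 CPM (-0.30, -0.38 to -0.23). Dppa2 was at 106 CPM and 37.5 CPM (1.5, 1.29 to 1.71) and its partner Dppa4 at 127 CPM and 53.2 CPM (1.26). The chromatin protein gene Utf1 was at 300.2 CPM and 129 CPM (1.22), and Tdgf1, which encodes the Nodal coreceptor Cripto, at 263 CPM and 130 CPM (1.02). Sox2, the partner of Oct4, was at 352 CPM and 245 CPM, under 2-fold.

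Formative genes had the highest median of the 3 pluripotency lists. Of 18 genes, 11 were tested, 6 were higher and 0 lower, with a median ratio of 1.22 (1.11 and 1.35). Their sum was 728 CPM and 353 CPM. In cells with few mitochondrial UMIs the median was 1.34. Of the tested genes, 2 (Grhl2 and Etv4) passed the filter only through the library labelled JupHigh and so had to differ.

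The late genes that define the list were at 0, low or level between the libraries. Fgf5, the classic marker of the postimplantation epiblast, had 0 UMIs in both. Pou3f1, which encodes Oct6, was at 6.26 CPM (27 UMIs) and 1.21 CPM (10 UMIs), beside 153 CPM in wild type serum and 212 CPM in the library labelled JupLow. Otx2, a homeobox factor of the formative state, was at 13.2 CPM and 12.8 CPM (0.05, -0.44 to 0.53), and at 36.2 CPM in wild type serum. The higher genes were others of the list. Grhl2, a regulator of epithelial genes (chr15:37233036-37363569, overlapped by Gm16136), was at 32.7 CPM (141 UMIs) and 1.57 CPM (13 UMIs), a ratio of 4.38 (3.56 to 5.33), with 42.6 CPM in wild type serum. Etv4, an ETS factor downstream of FGF, was at 26.0 CPM and 5.91 CPM (2.14), Sox11 at 46.2 CPM and 11.8 CPM (1.96), Foxd3 at 66.3 CPM and 22.5 CPM (1.56) and the WNT effector gene Lef1 at 58.7 CPM and 19.9 CPM (1.56). Tead2, a partner of YAP, had the lowest ratio of the list, at 30.4 CPM and 49.4 CPM (-0.70, -1.0 to -0.41).

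The share of cells with a UMI of the formative list was 47.2% (45.1 to 49.4%; 69.3% before thinning) in the library labelled JupHigh, 27.2% (25.6 to 28.8%; 51.7%) in 2i and 63.4% in wild type serum. Dnmt3b, a de novo methyltransferase gene of the list described next, made up 350 of its 728 CPM in the library labelled JupHigh and 150 of its 353 CPM in 2i. Among cells labelled JupHigh with 5 or more naive UMIs, the formative list held 0.82 UMIs per 1000 (0.77 to 0.87), against 0.37 (0.34 to 0.39) in such 2i cells. In cells with 0 or 1 naive UMI the values were 0.41 and 0.17. Those cells had 585 and 465 of 1000 UMIs on mitochondrial genes and their 3 copies, beside 178 and 109 in cells with 5 or more. The formative values of the 2 groups of cells are therefore shares of unlike remainders, and whether they differ apart from this was not tested.

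Dnmt3l stood apart within the DNA methylation list. Of 12 tested genes of the DNA methylation machinery, 4 were higher and 0 lower, with a median ratio of 0.26 (0.18 and 0.45). Dnmt3l, the catalytically inactive cofactor that stimulates de novo methylation (chr10:78041947-78063622, plus strand, overlapped by Aire), had 1515 UMIs (351 CPM) in the library labelled JupHigh and 219 UMIs (26.4 CPM) in 2i. The ratio was 3.73 (3.53 to 3.94), or 13.3-fold, and 4.03 in cells with few mitochondrial UMIs. Wild type serum was listed at 228 CPM and the library labelled JupLow at 291 CPM. A Dnmt3l UMI was found in 27.0% of thinned cells labelled JupHigh (25.2 to 29.0%; 44.4% before thinning) and 2.35% of 2i cells (1.83 to 2.97%; 6.16%). It was at 0.41 UMIs per 1000 in cells labelled JupHigh with 5 or more naive UMIs, and at 0.02 in such 2i cells.

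Its catalytic partners did not move alike. Dnmt3b (chr2:153649450-153687730) was at 350 CPM and 150 CPM, a ratio of 1.22 (1.11 to 1.33), while Dnmt3a was at 33.9 CPM and 42.6 CPM (-0.33, -0.62 to -0.05). The maintenance enzyme gene Dnmt1 was at 117 CPM and 144 CPM (-0.29), and Uhrf1, which guides it to replicated DNA, at 133 CPM and 212 CPM (-0.67, -0.81 to -0.54). Tet1, which oxidizes methylated cytosine, was at 423 CPM and 196 CPM (1.11, 1.01 to 1.21), and Gadd45a, a stress gene linked to demethylation, at 44.8 CPM and 12.3 CPM (1.86, 1.51 to 2.22). Higher levels were thus measured both for genes that add and for genes that remove methylation.

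Feedback genes of the ERK pathway held some large differences, of which some reached the level of wild type serum and some did not. Of 22 genes 11 were tested, 5 were higher (Spry4, Myc, Etv4, Dusp6 and Spred1) and 0 lower, with a median ratio of 0.82 (0.59 and 1.05) that was 1.11 in cells with few mitochondrial UMIs, where 7 of 12 were higher. Spry4 and Etv4 passed the filter only through the library labelled JupHigh and so had to differ. Spry2, Etv5 and Spred2, further feedback genes or targets, were at 0.82, 0.69 and 0.17. Spry4, a Sprouty inhibitor that ERK induces, was at 36.0 CPM and 4.10 CPM (3.13, 2.59 to 3.71), beside 33.2 CPM in wild type serum. Myc (chr15:61985391-61990374), a growth factor-responsive oncogene, was at 97.0 CPM (418 UMIs) and 19.07 CPM (158 UMIs), a ratio of 2.35 (2.08 to 2.62), beside 68.4 CPM. Spred1, a further inhibitor of the pathway, was at 83.5 CPM and 30.8 CPM (1.44), beside 145 CPM. Dusp6, the phosphatase that inactivates ERK, was at 31.8 CPM and 10.3 CPM (1.63, 1.23 to 2.04), beside 112 CPM in wild type serum and 104 CPM in the library labelled JupLow.

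Among immediate early members, Ier2 and Junb were tested and differed little, while Myc is given above. Ier2 was at 111 CPM and 95.5 CPM (0.22, 0.06 to 0.39) and Junb at 18.1 CPM and 15.0 CPM (0.27, -0.15 to 0.69). Others of the list were too low for the filter. Egr1 had 57 UMIs and 18 UMIs, Fos 23 UMIs and 2 UMIs, Dusp4 22 UMIs and 2 UMIs and Dusp5 14 UMIs and 1 UMI. Ier3 had 14 UMIs and 33 UMIs (-0.29). Ccnd1, the cyclin D1 gene, had the lowest ratio of the list, at 179 CPM and 206 CPM (-0.20), and 0.04 in cells with few mitochondrial UMIs. A UMI of the list was found in 61.7% of thinned cells labelled JupHigh (59.6 to 63.8%; 79.6% before thinning) and 45.4% of 2i cells (43.6 to 47.3%; 68.6%).

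Genes of the WNT list did not move as a group. Of 10 tested genes among 21, 2 were higher and 4 lower, and the median ratio of -0.16 (-0.43 and 0.11) became 0.07 in cells with few mitochondrial UMIs, with 2 higher and 2 lower. Feedback genes of the pathway differed among themselves. Axin2 (chr11:108920349-108950783, overlapped by Gm11670), a negative regulator that beta-catenin induces, was at 34.1 CPM (147 UMIs) and 74.7 CPM (619 UMIs), a ratio of -1.13 (-1.40 to -0.87). It was at 5.45 CPM in wild type serum and 12.5 CPM in the library labelled JupLow. Notum, which inactivates WNT ligands, was at 47.1 CPM and 108 CPM (-1.20, -1.43 to -0.98), beside 7.43 CPM and 15.98 CPM. Sp5, a zinc finger target, was at 79.3 CPM and 68.1 CPM (0.22, 0.02 to 0.42), beside 8.92 CPM and 15.98 CPM. Znrf3, which removes WNT receptors, was at 28.1 CPM and 23.1 CPM (0.28, -0.06 to 0.62).

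Others of the list went further to either side. Apcdd1, Cdx1 and Ccnd2 passed the filter through 1 library alone and so had to differ. The antagonist gene Apcdd1 was at 5.10 CPM and 17.5 CPM (-1.78) and the caudal homeobox gene Cdx1 at 8.82 CPM and 17.7 CPM (-1.01). Ccnd2, the cyclin D2 gene, was at 22.0 CPM and 2.66 CPM (3.05, 2.37 to 3.79), with 45.1 CPM in wild type serum. Lef1, the other higher gene of the WNT list and given above, was over 10 CPM in both libraries, at 58.7 CPM and 19.9 CPM (1.56). A UMI of the list was found in 32.0% (30.1 to 34.1%; 50.9% before thinning) and 33.3% (31.5 to 35.0%; 59.5%) of thinned cells. Of 13 of these 21 genes with a RefSeq promoter, 4 held the TCF/LEF words CTTTGAT or CTTTGAA in at least 1 promoter (Dkk1, Sp5, Sp8 and T). The words occur in 7.48% of all promoters, a share per promoter and not per gene. All of the 4 but Sp5 were below the filter.

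**Figure D3:**
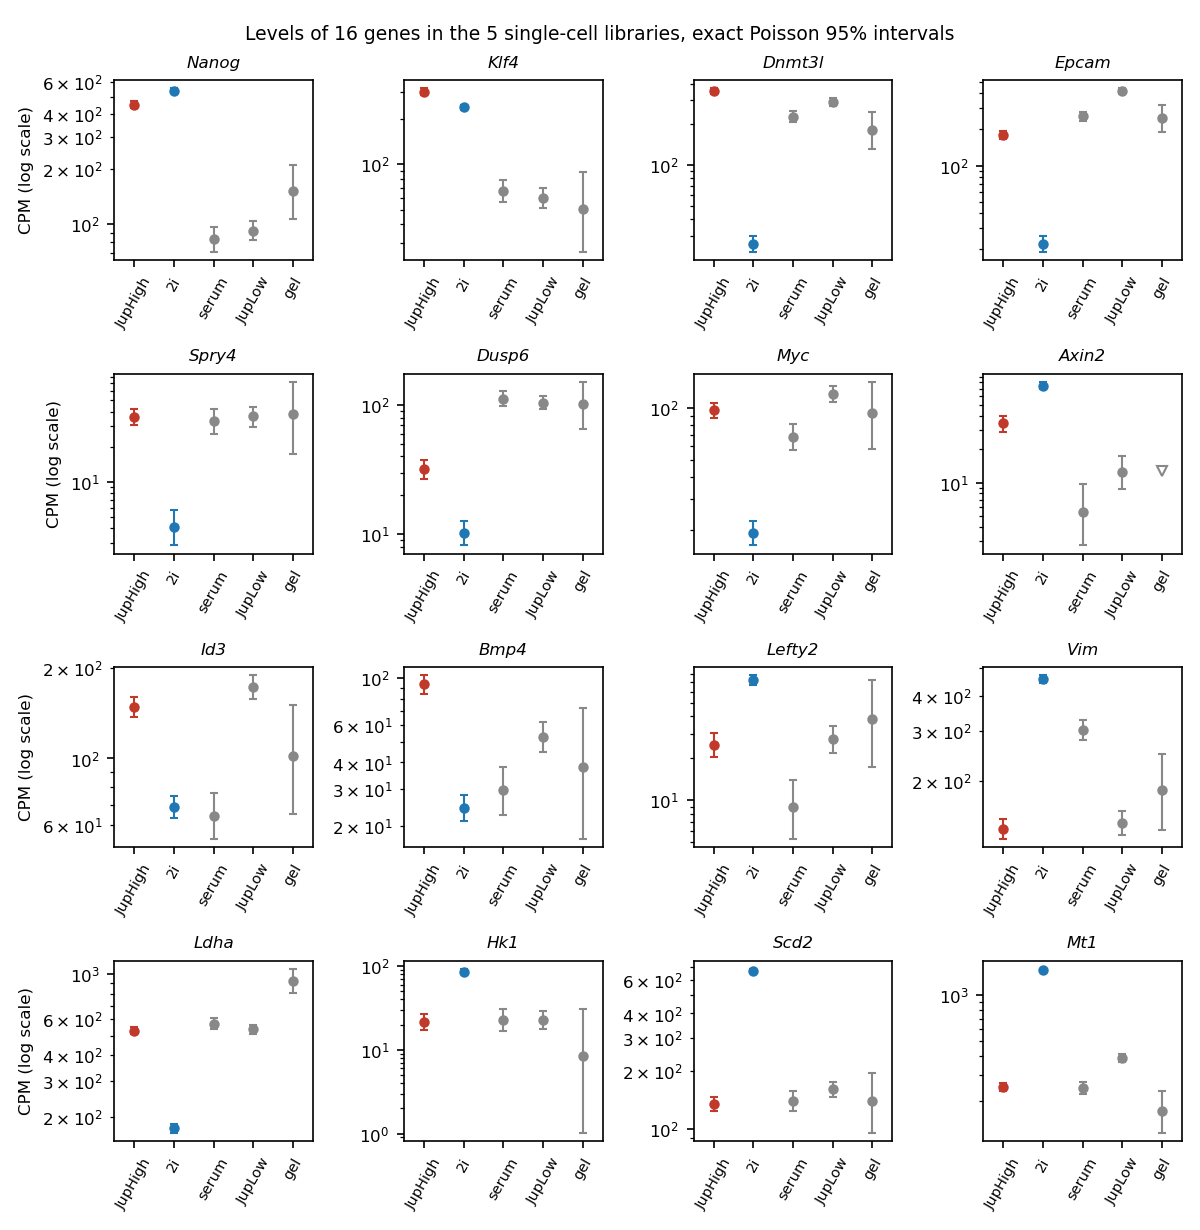
CPM (vertical axis, log scale) of 16 genes in the library labelled JupHigh (red), wild type 2i (blue) and the 3 other single-cell libraries (grey: wild type serum, labelled JupLow and wild type serum in gel). Bars are exact Poisson 95% intervals for counting error, and an open triangle is the level of 3 UMIs where none was counted. Nanog and Klf4 are close in red and blue, Dnmt3l, Epcam, Spry4 and Ldha are lowest in 2i, and Scd2, Mt1 and Hk1 are highest in 2i. Dnmt3l, Scd2 and Hk1 are overlapped genes, so their wild type serum points are drawn as listed and left out of this ranking.

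Among genes of BMP and SMAD signalling the ligand and some targets stood out. Of 14 genes 8 were tested, 4 were higher (Dusp9, which passed the filter only through that library, Bmp4, Smad7 and Id3) and 0 lower, with a median ratio of 0.90 (0.57 and 1.12). In cells with few mitochondrial UMIs 10 were tested, 6 were higher and 1 lower. Bmp4, the ligand, was at 93.3 CPM (402 UMIs) and 24.4 CPM (202 UMIs), a ratio of 1.94 (1.69 to 2.19), and at 29.7 CPM in wild type serum. A Bmp4 UMI was found in 9.10% and 2.22% of thinned cells (15.6% and 6.37% before). Id3, an inhibitor of differentiation that SMAD1 and SMAD5 induce, was at 148 CPM and 69.0 CPM (1.10, 0.94 to 1.27), and Id1 at 43.1 CPM and 26.8 CPM (0.69). Id2 and Id4 were below the filter and went opposite ways. Id2 had 59 UMIs and 35 UMIs (1.70, 1.07 to 2.34), and Id4 had 18 UMIs and 116 UMIs (-1.75, -2.55 to -1.02). The inhibitory SMAD gene Smad7 was at 30.9 CPM and 14.2 CPM (1.12). Dusp9, an ERK phosphatase on the X chromosome (chrX:73639419-73643514) that BMP signalling raises in ES cells, was at 34.8 CPM and 6.28 CPM (2.47, 2.01 to 2.95), beside 168 CPM in wild type serum. The effector genes Smad1 and Smad5 were at -0.28 and -0.15.

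The Nodal list held changes in both directions, with 3 higher and 1 lower of 9 tested genes and a median of 0.21, or -0.03 in cells with few mitochondrial UMIs. Skil, a SMAD corepressor, was at 38.3 CPM and 8.21 CPM (2.22, 1.81 to 2.65). It passed the filter only through the library labelled JupHigh and so had to differ. Lefty2, a secreted Nodal inhibitor, was at 25.1 CPM and 72.3 CPM (-1.53, -1.84 to -1.23), while Nodal itself was at 46.4 CPM and 38.4 CPM (0.27). Of 13 tested genes of the LIF and STAT3 list only Gbx2, named above, was higher and 0 were lower, with a median of 0.27 (0.02 and 0.45). The list holds the pathway genes Lifr, Il6st, Jak1 and Stat3 beside targets. Socs3, the feedback inhibitor of the pathway, was at 111 CPM and 106 CPM (0.06, -0.11 to 0.22), Pim1 at 155 CPM and 85.5 CPM (0.86) and Stat3 itself at 65.9 CPM and 95.2 CPM (-0.53, -0.73 to -0.33).

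Junction genes differed in both directions. Of 17 tested junction genes 3 were higher and 2 lower, with a median of 0.21 (0.08 and 0.41). Epcam, an epithelial adhesion molecule (chr17:87635979-87651129), was at 179 CPM (773 UMIs) and 22.2 CPM (184 UMIs), a ratio of 3.01 (2.78 to 3.25), with 258 CPM in wild type serum. An Epcam UMI was found in 16.02% (14.5 to 17.6%; 27.1% before thinning) and 2.11% (1.62 to 2.70%; 6.02%) of thinned cells. The tight junction gene Cldn6 was at 25.3 CPM and 3.26 CPM (2.96, 2.34 to 3.62) and Cdh3, which encodes P-cadherin, at 28.8 CPM and 12.7 CPM (1.18). The lower members were 2 desmosomal genes, with Pkp2 at 23.0 CPM and 54.1 CPM (-1.24, -1.56 to -0.92) and Dsg2 at 14.8 CPM and 34.2 CPM (-1.20, -1.62 to -0.81). Other plakophilin and desmosomal genes went to either side. Pkp4 was at 123 CPM and 66.4 CPM (0.89, 0.71 to 1.06). Below the filter, Perp had 41 UMIs and 14 UMIs (2.49) and Pkp3 18 UMIs and 11 UMIs (1.65). Pkp1 had 8 UMIs and 36 UMIs (-1.23, -2.54 to -0.10) and Dsp 14 UMIs and 33 UMIs (-0.29), also below the filter. The claudin gene Cldn4 was at 19.7 CPM and 24.02 CPM (-0.28), and Cldn6 passed the filter only through the library labelled JupHigh.

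The genes of E-cadherin, beta-catenin and alpha-catenin differed by less than 2-fold. Cdh1, which encodes E-cadherin, was at 214 CPM and 288 CPM (-0.43, -0.54 to -0.32). Ctnnb1, which encodes beta-catenin, was at 456 CPM and 395 CPM (0.21) and Ctnna1, which encodes alpha-catenin, at 305 CPM and 175 CPM (0.81, 0.70 to 0.91).

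The matrix and YAP lists held a few large differences. Of 7 tested genes of the YAP list 3 were higher and 0 lower. The list holds the pathway genes Yap1, Wwtr1 and Tead1 beside targets, and these were at 0.04, -0.52 and 0.34. The higher genes were Ccn2 at 45.9 CPM and 5.43 CPM (3.08, 2.61 to 3.58), Ccn1 at 24.1 CPM and 7.001 CPM (1.78), both secreted matrix proteins, and Ajuba, a LIM protein, at 90.9 CPM and 40.6 CPM (1.16). Ccn2 and Ccn1 passed the filter only through the library labelled JupHigh and so had to differ. Of 24 tested matrix and cytoskeleton genes 5 were higher and 2 lower, with a median of 0.26 (0.10 and 0.53), and 6 of the 24 passed through 1 library alone. Most of the called genes were among these 6 and so had to differ. They were S100a6, Col4a1, Cnn2 and Anxa2 on the higher side and Itga5 on the lower side, which leaves Lamb1 and Vim. S100a6, a calcium-binding protein gene, was at 50.8 CPM and 5.67 CPM (3.16, 2.70 to 3.65), far under 395 CPM in wild type serum. Vim (chr2:13573927-13582826), which encodes the intermediate filament vimentin, went the other way, at 136 CPM (587 UMIs) and 457 CPM (3788 UMIs), a ratio of -1.75 (-1.88 to -1.62), with 303 CPM in wild type serum. A Vim UMI was found in 11.9% (22.7% before thinning) and 36.4% (63.2%) of thinned cells.

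Some matrix counts sat in few cells. Col4a1, a basement membrane collagen gene of primitive endoderm, was at 29.9 CPM (129 UMIs) and 3.02 CPM (25 UMIs), a ratio of 3.31 (2.68 to 3.99), but 82.2% of its UMIs in the library labelled JupHigh lay in 10 cells and 35 in 1 cell. The 8 primitive endoderm markers summed to 81 UMIs (18.8 CPM) in 47 cells and 28 UMIs (3.38 CPM) in 27 cells, with Gata6 at 19 UMIs and 0 UMIs. In wild type serum they summed to 266 CPM. The laminin gene Lamb1 (54.7 CPM and 16.4 CPM, 1.74) was spread over more cells, with 16.5% of its UMIs in 10 cells. The sum of the 8 markers was thus higher in the library labelled JupHigh, as Col4a1 was, but Gata4 among them had 6 UMIs and 17 UMIs. Of 7 tested genes of the longer primitive endoderm list, 4 were above 0 and 3 below. That list summed to 782 CPM and 809 CPM. Whether the same cells held Col4a1 and the markers was not tested, nor was the part of the markers in the matrix list.

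Energy metabolism differed by compartment. Of 19 tested genes of glycolysis and the hypoxia response 5 were higher and 1 lower, with a median of 0.38 (0.24 and 0.50), or 0.58 in cells with few mitochondrial UMIs. Ldha (chr7:46841475-46855627), which turns pyruvate into lactate, was at 528 CPM (2278 UMIs) and 176 CPM (1460 UMIs), a ratio of 1.58 (1.49 to 1.68), and at 572 CPM in wild type serum. Ldhb, the subunit of the same enzyme favoured in oxidative tissues and no member of the list, went the other way, at 82.1 CPM and 406 CPM (-2.31, -2.47 to -2.15), beside 51.5 CPM in wild type serum. An Ldha UMI was found in 37.2% and 15.7% of thinned cells (55.4% and 34.1% before), and an Ldhb UMI in 6.83% and 30.4% (13.8% and 57.0%).

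Other steps followed either side of this exchange. Pdk1, a kinase that restrains pyruvate entry into mitochondria, was at 154 CPM and 49.1 CPM (1.65, 1.47 to 1.83). Bnip3, a hypoxia-induced mitophagy receptor gene, was at 35.0 CPM and 4.71 CPM (2.90, 2.38 to 3.44). The phosphofructokinase gene Pfkl was at 69.4 CPM and 29.5 CPM (1.24) and the glucose transporter gene Slc2a1 at 132 CPM and 65.5 CPM (1.01). Hk1, a hexokinase gene overlapped by Hk1os, was lower, at 21.6 CPM and 85.2 CPM (-1.98, -2.31 to -1.67), while Hk2 was at 238 CPM and 224 CPM (0.09).

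Nuclear genes of oxidative phosphorylation had ratios below 0 almost throughout. Of 44 tested genes 43 had ratios below 0, 7 were lower by 2-fold and 0 higher. The median was -0.63 (-0.78 and -0.46), beside -0.13 for all tested genes, with sums of 11068 CPM and 15821 CPM. The lowest ratios were those of Cox6b1, a subunit of complex IV, at 174 CPM and 396 CPM (-1.19, -1.31 to -1.07), and Atp5g1, a subunit of the ATP synthase ring, at 123 CPM and 254 CPM (-1.05). Its paralogue Atp5g3 was at 669 CPM and 1351 CPM (-1.01). In cells with few mitochondrial UMIs the median was -0.47, with 39 of 44 below 0 and none of the 44 past 2-fold. Mitochondrially encoded subunits had a median of 0.62 over 12 tested genes, with 3 higher, and 0.31 with 0 higher and 1 lower in cells with few mitochondrial UMIs. That 1 gene was mt-Atp6, at 4456 CPM and 7712 CPM over all cells (-0.79), and at -1.16 in those cells.

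Ribosomal protein genes also had ratios below 0 almost throughout, in 88 of 89 tested genes. Of the 89, 7 were lower and 0 higher, beside 6.31% and 3.64% of all tested genes. The median of the ribosomal protein genes was -0.61 (-0.69 and -0.52), beside -0.13 for all tested genes. They summed to 65808 CPM and 98554 CPM. In cells with few mitochondrial UMIs the median was -0.37, with 87 below 0 and 2 lower. Both gene groups kept a median below 0 under each scaling tried. Rps26 (-1.28) had the second lowest ratio, and reads of ribosomal protein genes can be split with their many processed copies. The list of Myc family and growth genes moved little, with 4 of 23 tested genes higher and a median of 0.24. Beside Myc and Ldha these were Mycn, at 352 CPM and 148 CPM (1.26, 1.15 to 1.36), and Lin28b, at 49.4 CPM and 20.8 CPM (1.25). Ncl and Npm1, abundant nucleolar targets, were at 0.29 and -0.31.

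Lipid genes leaned to 2i, with few past 2-fold. Of 23 tested genes of cholesterol and fatty acid synthesis 22 had ratios below 0, 4 were lower and 0 higher, with a median of -0.53 (-0.90 and -0.24) and sums of 1159 CPM and 2183 CPM. The large differences were in the stearoyl-CoA desaturases, which make monounsaturated fatty acids. Scd2 (chr19:44293674-44306864, overlapped by Mir5114) was at 136 CPM (586 UMIs) and 662 CPM (5487 UMIs), a ratio of -2.28 (-2.41 to -2.16), beside 141 CPM in wild type serum and 162 CPM in the library labelled JupLow. Scd1 was at 5.34 CPM and 52.1 CPM (-3.29, -3.96 to -2.68), beside 12.4 CPM and 9.38 CPM. An Scd2 UMI was found in 12.4% (10.99 to 13.8%; 21.4% before thinning) and 44.2% (42.4 to 46.1%; 68.8%) of thinned cells.

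The sterol branch moved less. Nsdhl was at 18.3 CPM and 40.9 CPM (-1.16) and Fdft1, squalene synthase, at 32.2 CPM and 66.0 CPM (-1.03), while Hmgcs1 was at 97.9 CPM and 103 CPM (-0.07). Idi1 alone was above 0, at 0.14. In cells with few mitochondrial UMIs the median of the list was -0.43, with 2 lower and 20 of 23 below 0.

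Genes of the integrated stress response and of serine synthesis also leaned to 2i. Of 17 tested genes 14 were below 0, 3 were lower and 0 higher, with a median of -0.70 (-0.94 and -0.48), and -0.52 with 2 lower in cells with few mitochondrial UMIs. Atf4, the transcription factor of the response, was at 40.1 CPM (173 UMIs) and 151 CPM (1251 UMIs), a ratio of -1.91 (-2.15 to -1.68), beside 83.7 CPM in wild type serum. Its targets Trib3, a pseudokinase gene, and Asns, whose promoter is printed above, were at 5.34 CPM and 14.8 CPM (-1.48) and at 109 CPM and 194 CPM (-0.84, -0.99 to -0.69). Atf5, a related factor, was at 12.1 CPM and 27.4 CPM (-1.18). The serine pathway genes Psat1 and Shmt2 were at -0.77 and -0.75. Slc7a3, an arginine transporter gene, had the highest ratio, at 179 CPM and 123 CPM (0.54). Of 20 genes of the list with a RefSeq promoter, 6 held TGATGNAA in at least 1 promoter (Asns, Atf3, Chac1, Pycr1, Slc7a11 and Vldlr). The word occurs in 3.45% of all promoters, a share per promoter and not per gene. All of the 6 but Asns were below the filter.

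Cdkn1a, which encodes the cell cycle inhibitor p21, stood apart among the tested genes of the p53 list. It was at 49.9 CPM (215 UMIs) and 192 CPM (1590 UMIs), a ratio of -1.94 (-2.16 to -1.74). The other 14 tested genes of the list were within 2-fold, with a list median of 0.02, and Mdm2 was at 106 CPM and 79.9 CPM (0.41). Genes below the filter went both ways. Pmaip1 had 55 UMIs and 15 UMIs (2.82), Perp 41 UMIs and 14 UMIs (2.49) and Gdf15 3 UMIs and 31 UMIs (-2.43). Cell cycle genes differed little: of 22 S phase genes 0 were higher and 0 lower (median -0.13), and of 26 genes of G2 and mitosis 0 were higher and 0 lower (median 0.17). Ccne1, the cyclin E1 gene, was the highest of the former, at 264 CPM and 145 CPM (0.87), and passed 2-fold in cells with few mitochondrial UMIs (1.14).

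**Figure D4:**
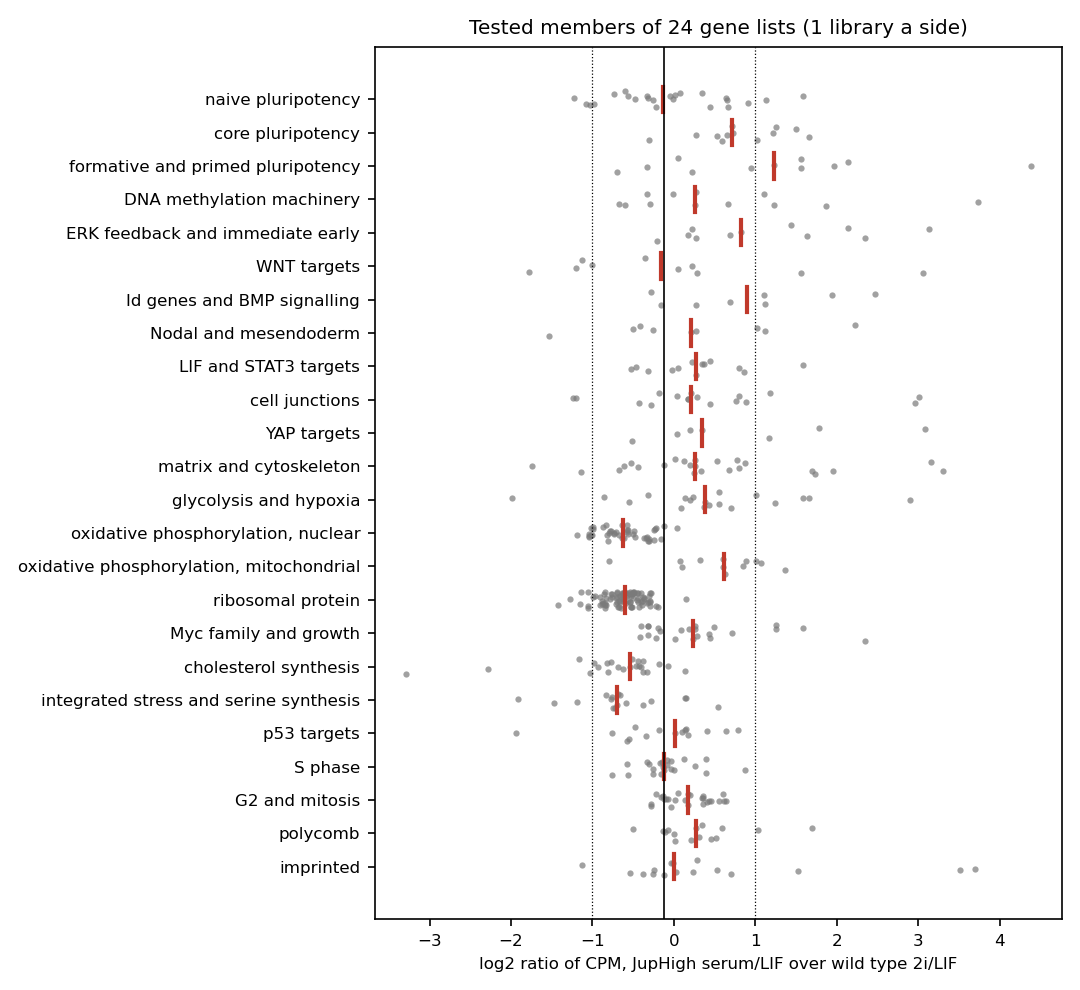
Log2 ratio of CPM (horizontal axis, library labelled JupHigh over 2i) for each tested member of 24 gene lists (grey points), with the list median (red bar). The solid line is the median of all tested genes (-0.13) and the dotted lines are 2-fold. Formative, ERK and BMP lists are centred to the right, and ribosomal protein, nuclear oxidative phosphorylation, cholesterol and integrated stress lists to the left.

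The 2-cell-like state is a rare and transient state with genes of the early embryo. Its Zscan4 genes and Gm4340 were found in few cells of the library labelled JupHigh and hardly at all in 2i. The whole list also summed higher, at 336 CPM and 123 CPM, but by a smaller factor than these genes. Of its 5 tested genes 4 were higher and 0 lower, with a median of 6.63 and a lowest ratio of 0.21. But 4 of the 5 passed the filter through 1 library alone and so had to differ. Genes Zscan4a to Zscan4f, whose near-identical sequences can share reads, summed to 514 UMIs in 75 cells (3.48%, 2.75 to 4.35%) and to 3 UMIs in 2 cells of 2i. Of the 514 UMIs, 401 (78.0%) lay in 10 cells and 74 in 1 cell. The other serum libraries held them too, at 63 UMIs (31.2 CPM, 62 of them in 1 cell) in wild type serum, 34 UMIs (11.8 CPM) in the library labelled JupLow and 6 UMIs (25.4 CPM) in wild type serum in gel. Gm4340 had 257 UMIs in 39 cells and 1 UMI in 1 cell of 2i, with 83.7% in 10 cells. Its neighbour Gm20765 (chr10:104185533-104188000) had 249 UMIs and 1 UMI. Dux, the factor that opens this state, was listed in neither library, and Zfp352 and Tcstv3, further markers, were near 0 on both sides, at 3 UMIs against 2 for the former and 4 against 0 for the latter.

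Imprinted genes and polycomb genes each held a few large differences. Of 16 tested imprinted genes 3 were higher and 1 lower, with a median of 0.01. Of the 3, Grb10 and Phlda2 passed the filter only through the library labelled JupHigh and so had to differ. Grb10, an adaptor that restrains insulin signalling (chr11:11930508-12038683), was at 57.8 CPM (249 UMIs) and 4.47 CPM (37 UMIs), a ratio of 3.69 (3.19 to 4.23), and Phlda2, a placental growth regulator gene, at 38.5 CPM and 3.38 CPM (3.51, 2.93 to 4.14). Both were spread over cells, with 8.43% and 13.3% of their UMIs in 10 cells. In wild type serum they were at 52.0 CPM and 94.7 CPM. H19, an imprinted RNA, had 0 UMIs and 4 UMIs, beside 213 CPM in wild type serum and 166 CPM in the library labelled JupLow. Meg3, of another imprinted cluster, was at 303 CPM and 362 CPM (-0.26).

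Of 15 tested polycomb genes 2 were higher and 0 lower, with a median of 0.27 (0.09 and 0.45). Jarid2 (chr13:44729474-44921643), an accessory subunit that recruits PRC2, was at 443 CPM (1908 UMIs) and 137 CPM (1131 UMIs), a ratio of 1.70 (1.59 to 1.80), and Epop, another accessory subunit, at 154 CPM and 75.1 CPM (1.03, 0.87 to 1.19). The enzyme gene Ezh2 was at 127 CPM and 92.3 CPM (0.46). Among 6 tested germline genes, Tex19.1 (chr11:121146143-121148319), a transposon defence gene sensitive to methylation, was at 124 CPM and 37.2 CPM (1.74, 1.53 to 1.95), and it was the only member past 2-fold.

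Metallothioneins were among the largest differences in expressed genes that were lower in the library labelled JupHigh. Mt1 (chr8:94179082-94180327, plus strand) had 1079 UMIs (250.3 CPM) and 12043 UMIs (1454 CPM), a ratio of -2.54 (-2.63 to -2.45). Mt2, its neighbour (chr8:94172664-94173568), was at 296 CPM and 1293 CPM (-2.13, -2.21 to -2.05). Metallothioneins bind zinc and copper, and the promoters printed above hold letter matches to the metal response element. In wild type serum Mt1 was at 246 CPM and in the library labelled JupLow at 386 CPM. An Mt1 UMI was found in 20.4% (18.7 to 22.2%; 32.4% before thinning) and 73.7% (72.0 to 75.3%; 92.4%) of thinned cells. The 2i library thus stood above all serum libraries named here.

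Of 3 tested genes of the aryl hydrocarbon receptor list 1 was lower. Nqo1, a quinone reductase gene, was at 20.4 CPM and 102 CPM (-2.32, -2.66 to -2.01), and Cyp1a1, the defining target of that receptor, had 0 UMIs and 29 UMIs. The list's other tested genes, Arnt and Tiparp, were at -0.19 and 0.75. Among retinoic acid targets 2 of 3 tested genes were higher, among them Crabp1 at 15.8 CPM and 4.95 CPM (1.67).

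Among protein-coding genes without exon overlap and beyond the lists, the largest ratios after those of Gm20765 and Zscan4-ps3 were those of Spink1, a secreted protease inhibitor gene, with 280 UMIs (65.0 CPM) and 16 UMIs (1.93 CPM), a ratio of 5.07 (4.35 to 5.90), and Plac8, with 246 UMIs and 16 UMIs (4.88, 4.16 to 5.71). Spink1 and Plac8 passed the filter only through the library labelled JupHigh and so had to differ. A Spink1 UMI was found in 5.81% and 0.173% of thinned cells (11.3% and 0.554% before), and the 10 cells with most held 28 of its UMIs. Wild type serum was at 38.7 CPM for Spink1 and 11.4 CPM for Plac8. Armc3 (2.83), the glutamate transporter gene Slc1a3 (2.70) and Gad1 (2.43), which makes the transmitter GABA, followed. Gad1 was at 55.2 CPM and 10.3 CPM, while wild type serum held 1 UMI and the library labelled JupLow 9 UMIs. Among the genes with at least 100 CPM on one side, Klhl13, a ubiquitin ligase adaptor gene on the X chromosome, was at 259.8 CPM (1120 UMIs) and 39.6 CPM (328 UMIs), a ratio of 2.71 (2.54 to 2.90), with 19.7% and 4.15% of thinned cells (32.0% and 9.45% before). Nup210l (2.31) and Enox1 (2.24) were next.

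In the other direction Zfp940, a zinc finger gene (chr7:29833620-29853669), had 55 UMIs (12.8 CPM) and 1651 UMIs (199 CPM), a ratio of -3.97 (-4.38 to -3.58). H2ac7, a histone H2A gene, had 34 UMIs and 1464 UMIs (-4.49, -5.02 to -4.00), and 177 CPM in 2i stood against 11.9 CPM in wild type serum. Ly6a, which encodes the surface antigen Sca-1, was at 5.10 CPM and 51.7 CPM (-3.34), and Fam25c at 10.2 CPM and 97.8 CPM (-3.26). H2ac7 and Ly6a passed the filter only through 2i and so had to differ. Mitf, the master factor of pigment cells, was at 21.6 CPM and 89.1 CPM (-2.05), the cathepsin inhibitor gene Cstb at 28.3 CPM and 127 CPM (-2.17), Ass1, of arginine synthesis, at 17.4 CPM and 68.8 CPM (-1.98) and Prrc1 at 55.0 CPM and 212 CPM (-1.95). In wild type serum Mitf was at 36.2 CPM and Cstb at 81.8 CPM, and the others named here lay between 3.47 and 37.7 CPM.

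A pair of processed pseudogenes, intronless copies of other transcripts, were found in 2i and hardly or not at all in the library labelled JupHigh. Gm19931 had 1 UMI in the library labelled JupHigh and 5462 UMIs (659 CPM) in 2i, in 75.3% of 2i cells before thinning, and 0 UMIs in wild type serum and in the library labelled JupLow. Gm9391 had 0 UMIs and 1005 UMIs (121 CPM), at least 174-fold lower against the level of 3 UMIs per library, with 135 CPM in wild type serum and 0 in the library labelled JupLow. Reads of such copies can be split with their parent genes, so these are reported as uncertain.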

How the data were processed

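Transcripts were counted in 5 single-cell inDrop libraries of mouse ES cells, of which 2 are compared here, with 1 library per condition. The deposited tables hold UMI counts per gene and barcode, made by the authors. FastQC, STAR, featureCounts, DESeq2 and Scanpy, with the builds mm10 and GRCm38, are named without roles or versions, per the submitters' processing notes. Whether counting used strand is not given in the sources used here, so a gene and an overlapping partner cannot be told apart.

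Barcodes with 1000 or more UMIs and at most 0.9 genes per UMI were kept, a limit on genes per UMI that removed 0 cells, and barcodes with 8 G bases at each end were left out. Columns that name no gene held 0.105% and 0.0908% of UMIs and stayed out of all totals. No doublet caller was run. UMIs were summed per library and divided by the library total to give CPM. Ratios have exact conditional 95% intervals (Clopper-Pearson), and levels exact Poisson intervals; UMIs remove PCR copies, and intervals cover counting error only. A count of 0 was set to 3 UMIs for a ratio. Shares of cells were taken after drawing 1000 UMIs from each cell, with exact binomial intervals. A list is described by the median over its tested members, and the pair of values behind it are the medians of the members' lower and upper limits. With 1 library per condition, no p-value was computed. Exon overlaps and coordinates are those of GENCODE M21 on GRCm38. The calculation was tested on simulated data.

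The genes named were Jup, up to 4 tested members of each of 32 lists (the 2 largest ratios in each direction) with list-defining genes at 0 or below the filter, the 12 largest ratios in each direction among protein-coding genes of 50 CPM or more without exon overlap, and the 5 largest in each direction among all genes of 100 CPM or more. Other list members and Mt2 were named after their values were seen. The comparison and the lists were chosen with earlier results of these data known. Python 3.11.15, numpy 2.4.6, scipy 1.17.1, matplotlib 3.10.9, R 4.3.3 and edgeR 4.0.16 (for the TMM factor alone) were used. Alternatives changed the scaling, the filter, the pseudocount, the depth per cell and the cells kept. Some genes that this rule names are not reported here.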

Additional observations from a re-analysis of the deposited data

How the results depend on the processing

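No paired analysis was possible because each condition is 1 library. Of 16 alternatives, 14 were planned with earlier results of these data known and 2 were chosen after seeing the data: totals without mitochondrial genes, ribosomal protein genes and 3 mitochondrial copies, and cells under 30% mitochondrial UMIs. Of 151 named genes with a ratio, 89 were past 2-fold, 67 of them in every setting, and none of the 89 changed sign. Of 31 lists with a median, 10 changed sign in some setting: naive, WNT, Nodal, primitive endoderm, p53, S phase, germline, imprinted, polycomb and aryl hydrocarbon receptor. The median of all genes moved by 0.12 to 0.16 with TMM, the median of ratios and both added settings. The cause of each change below was not tested.

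Genes higher in the library labelled JupHigh numbered 498 at a mean of 5 CPM or more, 73 at 50 CPM or more, 5007 with no filter, 162 with a pseudocount of 10 CPM and 536 with the reduced totals. Genes lower there numbered 352 with TMM, 355 with the median of ratios, 173 at 50 CPM or more, 2058 with no filter, 201 with the pseudocount and 316 in cells with few mitochondrial UMIs. Under the pseudocount Apcdd1, Crabp1, Dsg2, Epop, Gbx2, Pecam1, Pkp2, Smad7, Tdgf1 and Trib3 were among the genes that lost 2-fold.

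TMM and the median of ratios gave a core pluripotency median of 0.84 and 0.84, a glycolysis median of 0.50 and 0.50 and a ribosomal protein median of -0.48 and -0.48. With the reduced totals the medians were 0.87 for core, 1.38 for formative, 1.6 for ERK, 0.56 for glycolysis and -0.45 for ribosomal protein genes. In cells with few mitochondrial UMIs they were 0.91 for core, 1.11 for ERK, 1.17 for BMP, 0.58 for glycolysis and -0.37 for ribosomal protein genes. Without overlapping genes they were 1.02 for core, 1.44 for ERK, 0.13 for DNA methylation and 0.56 for glycolysis. At 5 CPM or more ERK was 1.44 and DNA methylation 0.13, and at 50 CPM or more WNT was -0.54. With no filter ERK was 1.48, BMP 0.28 and the 2-cell-like list 3.03. With the pseudocount the 2-cell-like list was 1.86. Its main median was 6.63, where 4 of its 5 tested genes passed the filter through 1 library alone and so had to differ. With each cell weighing alike WNT was 0.18, glycolysis 0.50 and ribosomal protein genes -0.79. From cells thinned to 1000 UMIs formative was 1.35, BMP 1.27, the 2-cell-like list 4.97 and ribosomal protein genes -0.80. In cells of 2000 UMIs or more nuclear oxidative phosphorylation was -0.43, the 2-cell-like list 5.56 and ribosomal protein genes -0.41.

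The share of cells with a naive UMI was 88.2% and 92.3% in the library labelled JupHigh and in 2i at 500 UMIs, 99.8% and 99.9% at 2000 UMIs, and 99.7% and 99.6% in cells with few mitochondrial UMIs. For the formative list it was 29.8% and 14.5%, 76.3% and 48.4%, and 55.3% and 29.1%.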

Other observations

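Y-linked transcripts (Ddx3y, Eif2s3y and Uty) were found in both libraries, at 50.6 CPM in the library labelled JupHigh and 100.7 CPM in 2i. They were at 100.6 CPM in wild type serum and 222 CPM in the library labelled JupLow. Xist had 9 UMIs and 1 UMI. The mitochondrial transfer RNA gene mt-Td had 400 UMIs and 5978 UMIs, a ratio of -2.96, among the 5 lowest ratios of genes at 100 CPM or more.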
